A study of Mus musculus with 59 samples.

Results

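Slc25a1 encodes the citrate carrier of the inner mitochondrial membrane. The gene was taken by its symbol from the deposited table of raw read counts, where it is 1 of 57180 gene rows, and was measured in all 59 libraries of the series. The libraries hold poly(A) RNA from the cortex (30 libraries) and hippocampus (29 libraries) of 30 male mice, and 29 of the animals gave both tissues. Each animal carries a labelled genotype at 2 genes of the mouse region that matches the human microdeletion 22q11.2. Animals labelled wild type are +/+ at Slc25a1 and at Mrpl40, a gene for a large-subunit protein of the mitochondrial ribosome, and gave 9 cortex and 8 hippocampus libraries. Animals labelled Slc25a1 het are -/+ at Slc25a1 and +/+ at Mrpl40, those labelled Mrpl40 het are -/+ at Mrpl40 and +/+ at Slc25a1, and those labelled double het are -/+ at both, with 7 libraries for each of these genotypes in each tissue. The sources used here do not give the make of the -/+ alleles or the age and strain of the animals. The design asks how the loss of 1 copy of either gene, alone or together, shows in brain RNA.

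The citrate carrier exchanges citrate made in the mitochondrial matrix for cytosolic malate. In the cytosol, ATP citrate lyase (Acly) splits the exported citrate into acetyl-CoA and oxaloacetate, and this acetyl-CoA feeds the synthesis of fatty acids and cholesterol and the acetylation of proteins. In a diploid animal with 1 disrupted copy of a gene, the RNA of that gene is often, but not always, reduced.

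The gene (ENSMUSG00000003528) lies on the minus strand of chr16:17925223-17928219 in GRCm38, the build of the annotation used here (GENCODE vM21), while the submitters' processing notes name GRCm39. Its longest annotated transcript has 1666 bases with a GC content of 59.1%. In cortex 75.1% of the tested genes have a longer transcript and 5.85% a higher GC content. The 250 bases before the RefSeq start of the gene (GRCm38.p6, chr16:17928220-17928469, minus strand) are shown because the level of the promoter's own gene is the measurement described throughout. The capitals mark matches to 3 short motifs, which were searched on both strands.

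Slc25a1 promoter: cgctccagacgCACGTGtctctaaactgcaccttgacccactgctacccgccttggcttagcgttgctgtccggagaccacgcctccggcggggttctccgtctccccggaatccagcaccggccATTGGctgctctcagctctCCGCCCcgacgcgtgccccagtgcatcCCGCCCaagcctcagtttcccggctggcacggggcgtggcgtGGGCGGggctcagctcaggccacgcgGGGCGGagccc

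This stretch has a GC content of 70.0%. It holds 1 match to the E-box CACGTG, the palindromic site of factors such as USF and MYC, and 6.02% of 32851 mouse promoter windows hold at least 1 such match. The CCAAT box (CCAAT) has 1 match, read here on the other strand, and 33.8% of the windows hold it. The GC box (GGGCGG), the site of SP1-type factors, has 4 matches, and 32.7% of the windows hold at least 1. None of these motifs overlaps another here. Of 31 genes of citrate metabolism described below that have a promoter window, 2 hold the E-box, 19 the CCAAT box and 18 the GC box. These counts are per gene, over all its windows, while the shares above are per window. A match is a description of the letters and no measurement of binding.

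The libraries held 21443017 to 32120906 counts, of which 254 to 783 were on Slc25a1. The tissue labels were checked against marker genes. The 7 measured of 8 neocortical markers summed to 923 to 1323 CPM (reads of a gene relative to the normalized library total) in cortex and 286 to 397 CPM in hippocampus. The 8 hippocampal markers summed to 910 to 1783 CPM in hippocampus and to 145 to 223 CPM in cortex. The hippocampus library of animal 12, labelled Slc25a1 het, held 459 CPM of cerebellar markers, which is 19.6 times the median of that tissue. In these bulk samples fewer cells of a type and less RNA per cell cannot be told apart.

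Slc25a1 lay on 1 of 2 levels in every library, and 6 animals were not on the level of their label. The levels were defined by the largest gap between neighbouring values on the log2 CPM scale that leaves at least 5 libraries on each side. In cortex the 12 libraries of the low level ranged from 10.6 to 13.0 CPM with a median of 11.6 CPM, and the 18 of the high level from 20.8 to 26.1 CPM with a median of 23.2 CPM. In hippocampus the low level (12 libraries) ranged from 10.8 to 13.1 CPM with a median of 11.9 CPM, and the high level (17 libraries) from 21.4 to 27.7 CPM with a median of 24.9 CPM. The median of the low level was 50.0% of that of the high level in cortex and 48.0% in hippocampus, and no library lay between.

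The counting intervals of the levels do not meet in either tissue. The gap spans 0.67 on the log2 scale in cortex and 0.70 in hippocampus, or 1.59-fold and 1.63-fold. By 95% Poisson intervals of single libraries, which cover counting error only, in cortex the highest upper bound on the low level is 14.4 CPM and the lowest lower bound on the high level 19.1 CPM, and in hippocampus these bounds are 14.6 and 19.7 CPM. Inside a level the libraries differed little. The coefficient of variation was 6.41% on the low and 6.30% on the high level in cortex, where counting alone gives 5.68% and 3.96%. In hippocampus it was 5.69% and 6.74%, where counting gives 5.53% and 3.98%. The spread on the low level is thus close to that of counting in both tissues.

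**Figure D1:**
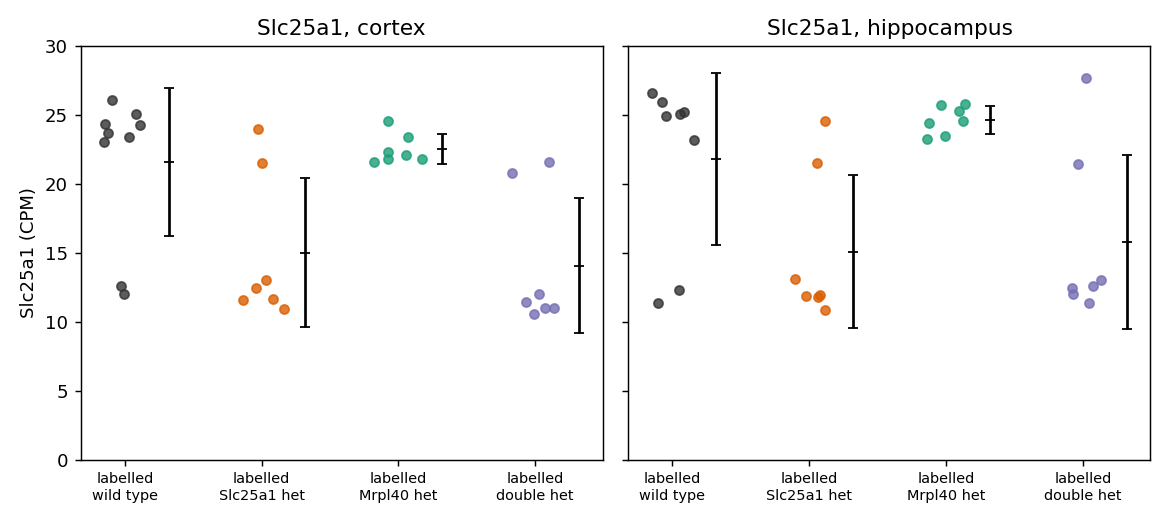
Slc25a1 in CPM (y axis, from 0) in every library by labelled genotype, cortex left and hippocampus right; points are libraries and the bars beside them give mean and SD. No library lies between 13.0 and 20.8 CPM in cortex or between 13.1 and 21.4 CPM in hippocampus, and every label other than Mrpl40 het has libraries on both levels.

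In cortex labelled wild type the 9 libraries had a lowest value of 12.0, a median of 23.7 and a highest value of 26.1 CPM. The 7 labelled Slc25a1 het ran from 10.9 through a median of 12.5 to 24.0 CPM. The 7 labelled Mrpl40 het ran from 21.6 through 22.1 to 24.5 CPM, all on the high level. The 7 labelled double het ran from 10.6 through 11.4 to 21.6 CPM. The ranges of wild type, Slc25a1 het and double het overlap, because 2 libraries labelled wild type are low and 2 of each of the labels with Slc25a1 -/+ are high.

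Hippocampus showed the same arrangement. The libraries labelled wild type (8) ran from 11.3 through a median of 25.0 to 26.6 CPM. Those labelled Slc25a1 het ran from 10.8 through 11.9 to 24.5 CPM, those labelled Mrpl40 het from 23.3 through 24.6 to 25.8 CPM, and those labelled double het from 11.3 through 12.6 to 27.7 CPM. The highest value of the tissue belongs to a library labelled double het, that of animal 29. Only the Mrpl40 het label holds libraries of a single level in both tissues.

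The 6 animals whose level goes against the label are not borderline cases. Animals 6 and 7, labelled wild type, had 371 and 350 reads on Slc25a1 in cortex (12.6 and 12.0 CPM) and 330 and 322 reads in hippocampus (11.3 and 12.3 CPM). Animals 12 and 13, labelled Slc25a1 het, had cortex values of 21.5 and 24.0 CPM and hippocampus values of 24.5 and 21.5 CPM. Animals 29 and 30, labelled double het, had 21.6 and 20.8 CPM in the former and 27.7 and 21.4 CPM in the latter tissue. The genotype of these animals cannot be settled from the level of the RNA, so every comparison below is between libraries as labelled. Whether the labels or the animals differ from what was meant was not tested.

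By label, the mean of Slc25a1 in cortex was 21.6 ± 5.36 CPM (SD, n = 9) in wild type, 15.0 ± 5.38 (SD, n = 7) with the label Slc25a1 het, 22.5 ± 1.07 (SD, n = 7) with Mrpl40 het and 14.1 ± 4.89 (SD, n = 7) with double het. In hippocampus the means were 21.8 ± 6.25 CPM (SD, n = 8), 15.1 ± 5.52 (SD, n = 7), 24.6 ± 1.02 (SD, n = 7) and 15.8 ± 6.29 (SD, n = 7) in the same order. The SD is large in the 3 labels that hold libraries of both levels and small in Mrpl40 het. The 6 animals were picked by Slc25a1 itself, so that Slc25a1 was not tested without them. Fits of other genes without them, given below, rest on the same choice. Leaving out the 6 animals, the means in cortex were 24.3, 11.9, 22.5 and 11.2 CPM, and in hippocampus 25.2, 11.9, 24.6 and 12.3 CPM.

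In the fit over all genes Slc25a1 lay lower in both labels with Slc25a1 -/+ and did not pass the test. Genes were tested with the quasi-likelihood test of edgeR, with a Benjamini-Hochberg adjusted p under 0.05 as the threshold. In cortex labelled Slc25a1 het the log2 fold change against wild type was -0.53 ± 0.20 (SE), with a 95% interval from -0.91 to -0.14 and an edgeR adjusted p of 0.9999. In cortex labelled double het it was -0.61 ± 0.20 (edgeR adjusted p 0.247), and against Mrpl40 het -0.67 ± 0.21 (edgeR adjusted p 0.463). In hippocampus these 3 differences were -0.53 ± 0.22 (edgeR adjusted p 0.599), -0.46 ± 0.22 (0.933) and -0.64 ± 0.23 (0.958). The test called 0% of all genes in Slc25a1 het against wild type in each tissue, 0.0686% in cortex labelled double het and 0.00992% in hippocampus labelled double het. It called 0.0049% in double het against Mrpl40 het in cortex and 0% in hippocampus.

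Pooling both labels with Slc25a1 -/+ against both with Slc25a1 +/+, in a model that also holds the labelled Mrpl40 genotype, gave -0.59 ± 0.14 in cortex and -0.59 ± 0.16 in hippocampus. Slc25a1 then had rank 8 by p among 20394 genes in cortex (p 0.000267, edgeR adjusted p 0.681) and rank 33 among 20162 in hippocampus (p 0.000824, edgeR adjusted p 0.456), and 0% of genes were called in either tissue. Slc25a1 thus stands near the top of both lists without passing.

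Between labels that differ at Mrpl40 alone, the difference in Slc25a1 was smaller than its SE in the main fit. Mrpl40 het against wild type was 0.06 ± 0.19 (interval -0.31 to 0.44, edgeR adjusted p 0.967) in cortex and 0.18 ± 0.22 (interval -0.25 to 0.60, edgeR adjusted p 0.843) in hippocampus. Double het against Slc25a1 het was -0.08 ± 0.21 (edgeR adjusted p 0.937) in cortex and 0.07 ± 0.23 (0.956) in hippocampus. With the replicate number as a block, Slc25a1 in hippocampus labelled Mrpl40 het against wild type was 0.35 ± 0.24, larger than its SE. The interaction, double het minus both single effects, was -0.15 ± 0.29 (interval -0.71 to 0.42, edgeR adjusted p 0.984) in cortex and -0.11 ± 0.32 (interval -0.73 to 0.51, edgeR adjusted p 0.999) in hippocampus. The intervals of the interaction are wide enough to hold a negative value of the size of the pooled label difference (-0.59 in each tissue). Of all genes, 0.0294% in cortex and 0.00496% in hippocampus were called in Mrpl40 het against wild type, 0.0588% and 0% in double het against Slc25a1 het, and 0% in the interaction of either tissue. The RNA of Mrpl40 itself did not pass in Mrpl40 het against wild type. It was at -0.04 ± 0.061 (SE, edgeR adjusted p 0.915) in cortex and -0.00044 ± 0.054 (0.999) in hippocampus.

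A test on Slc25a1 alone, without a count model, called a difference of means between some of the labels. Two-sided exact permutation tests of the CPM were run for 12 pairs of labels and adjusted over them. In cortex, the mean of Slc25a1 het differed from wild type by -6.57 CPM (exact permutation p 0.0203, adjusted 0.0406), and that of double het by -7.53 CPM (exact permutation p 0.0115, adjusted 0.0294). Double het differed from Mrpl40 het by -8.46 CPM (exact permutation p 0.000583, adjusted 0.00699), and Mrpl40 het lay 7.50 CPM above Slc25a1 het (exact permutation p 0.0122, adjusted 0.0294). In hippocampus, Mrpl40 het lay 9.54 CPM above Slc25a1 het (exact permutation p 0.00233, adjusted 0.0140) and double het differed from Mrpl40 het by -8.85 CPM (exact permutation p 0.0105, adjusted 0.0294).

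The remaining pairs did not pass. In hippocampus Slc25a1 het differed from wild type by -6.73 CPM (exact permutation p 0.0342, adjusted 0.0586) and double het by -6.03 CPM (exact permutation p 0.0985, adjusted 0.148). Mrpl40 het against wild type (exact permutation p 0.620 in cortex and 0.425 in hippocampus, adjusted 0.677 and 0.567) and double het against Slc25a1 het (exact permutation p 0.584 and 0.777, adjusted 0.677 and 0.777) did not pass in either tissue. The order of the label means from low to high was double het, Slc25a1 het, wild type and Mrpl40 het in cortex, and Slc25a1 het, double het, wild type and Mrpl40 het in hippocampus. Of the neighbours in these orders, Slc25a1 het and wild type in cortex alone had an adjusted exact permutation p under the threshold (0.0406), with ranges that overlap, and no pair of neighbours passed by edgeR.

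Cortex and hippocampus of the same animal always lay on the same level: 29 of 29 animals were low in both or high in both. Below the level of that split the tissues of an animal did not track each other detectably. Over the 12 low animals the Pearson r between the log2 CPM of the tissues was 0.077 (permutation p 0.811) and Spearman's rho -0.014 (permutation p 0.978). Over the 17 high animals r was 0.092 (permutation p 0.725) and rho 0.108 (permutation p 0.677). Adjusted over the 2 levels the p-values were 0.811 for both r and 0.978 for both rho. Without the 2 animals farthest from the median cortex value, r was 0.292 (n = 10) and -0.192 (n = 15). No pooled r is given, since the animals fall into 2 separate groups.

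**Figure D2:**
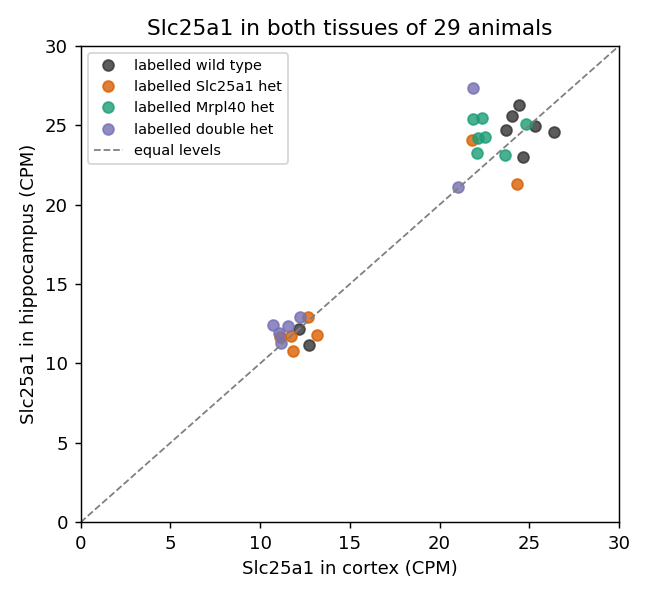
Slc25a1 in cortex (x axis, CPM) against hippocampus (y axis, CPM) of the 29 animals with both tissues, coloured by labelled genotype, with both tissues scaled together and the dashed line marking equal levels. The 29 animals form a low and a high group with none off the diagonal between them, and 20 of 29 lie above the line.

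The tissues expressed Slc25a1 at nearly the same level. With the animal as a block and both tissues normalized together, hippocampus minus cortex was 0.04 ± 0.024 (SE) on the log2 scale over 29 animals (edgeR adjusted p 0.127), a comparison in which 79.2% of all genes were called. A permutation test of the paired differences gave p 0.102, and 20 of 29 animals were higher in hippocampus. Single animals ran from -0.19 (animal 13) to 0.32 (animal 29), both of them animals whose level goes against the label. By size, 90.3% of the tested genes differed more between the tissues, and the median absolute difference over genes was 0.25.

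By label the tissue difference was -0.02 ± 0.042 (SE, edgeR adjusted p 0.744) in wild type and -0.04 ± 0.047 (0.523) in Slc25a1 het, with 3 of 8 and 4 of 7 animals higher in hippocampus. In Mrpl40 het it was 0.10 ± 0.044 (edgeR p 0.0302, adjusted 0.0485) with 6 of 7 animals higher, and in double het 0.12 ± 0.047 (edgeR p 0.0141, adjusted 0.0254) with 7 of 7. Adjusted values this near the unadjusted ones occur where a large share of all genes has a small p. That share was not counted for single labels, and over all 29 animals 79.2% of genes were called. Without the 6 animals, 5 of 5 animals labelled double het were higher in hippocampus, with a mean difference of 0.10, and 3 of 6 labelled wild type, 3 of 5 labelled Slc25a1 het and 6 of 7 labelled Mrpl40 het. The difference between the labels themselves had a p of 0.0395 and an edgeR adjusted p of 0.612, so the tissue difference is not shown to depend on the labelled genotype. That test called 0.0203% of all genes.

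A gap as wide as that of Slc25a1 was rare among the genes of these libraries. For every tested gene the largest gap with at least 5 libraries on each side was taken in the same way. The median gap was 0.05 in cortex and 0.06 in hippocampus, and the 99th percentile 0.30 and 0.33. Other genes with a gap at least as wide numbered 3 of 20393 in cortex and 9 of 20161 in hippocampus. Among genes whose mean log2 CPM reached 1 there were 2 and 3. Only 2 genes had a wider gap than Slc25a1 in both tissues.

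Those were Mid1 and Capn11. Mid1, an X-linked ubiquitin ligase gene, had gaps of 1.21 in cortex and 1.05 in hippocampus, and Capn11, which encodes a calpain protease, 2.03 and 0.88. Next came the predicted gene Gm15446 with 0.64 and 0.62, then Xlr4b (0.60 and 0.77), G530011O06Rik (0.57 in both), the collagen gene Col6a4 (0.57 and 0.62), the cadherin gene Fat2 (0.43 in cortex and 0.44 in hippocampus) and Slc26a7, an anion transporter gene (0.43 and 0.61). These genes split other animals than Slc25a1 does: at best 18 of 30 cortex libraries and 18 of 29 hippocampus libraries fell on matching sides. Over all tested genes the best match to the Slc25a1 split was 26 of 30 in cortex and 25 of 29 in hippocampus, so no other gene divided the libraries at its own largest gap as Slc25a1 did.

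Genes that follow Slc25a1 across libraries were sought over all libraries of a tissue. The likeness of a gene is the smaller absolute Pearson r with Slc25a1 of the 2 tissues where both have the same sign, and it is given as a description with no p. The libraries of the tissues come from the same animals, and r over all libraries mixes the step between the levels with the spread inside them. Of 19462 genes measured in both tissues, 26 had a likeness of at least 0.4 and 12 of -0.4 or below. The central 95% of r over all genes ran from -0.41 to 0.41 in cortex and from -0.40 to 0.38 in hippocampus.

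The gene most like Slc25a1 was Cox8a, a nuclear-encoded subunit of cytochrome c oxidase, with r of 0.56 over 30 cortex libraries and 0.57 over 29 hippocampus libraries. Its r inside the levels was of similar size: 0.69 on the low and 0.48 on the high level in cortex, and 0.59 and 0.51 in hippocampus. The slope of Cox8a inside the levels did not pass (edgeR adjusted p 0.116 in cortex and 0.0843 in hippocampus). With the length and GC trends of the libraries, described below, as covariates the edgeR adjusted p was 0.488 and 0.0958. Cox8a has a transcript of 550 bases with a GC content of 58.5%. By label Cox8a measured 212 ± 7.49 CPM (SD, n = 9) in cortex labelled wild type, 203 ± 9.50 with Slc25a1 het, 203 ± 5.34 with Mrpl40 het and 194 ± 4.27 with double het (SD, n = 7 each). As fold changes, its values thus span a small part of the range that Slc25a1 spans, and the labels overlap.

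Next were Ppp1cc, a catalytic subunit of protein phosphatase 1 (0.53 in cortex, 0.50 in hippocampus), Arl6ip4, which encodes a splicing-related protein (0.50 in both), and Prelid1, a carrier of phosphatidic acid between mitochondrial membranes (0.48 and 0.49). Atp5d, the delta subunit of the ATP synthase, had r of 0.60 and 0.47. Ppt1, a lysosomal thioesterase (0.47 in both), Brk1, a subunit of the WAVE actin complex (0.49 and 0.47), and Ap2s1, a subunit of the clathrin adaptor AP-2 (0.49 and 0.46), completed the 8 highest of the pool. Inside the low level of cortex, r was negative for Prelid1 (-0.46), Ppt1 (-0.42), Ap2s1 (-0.40), Brk1 (-0.37) and Atp5d (-0.32), and 0.0036 for Ppp1cc. In the low level of hippocampus it was -0.01 for Prelid1 and -0.10 for Brk1. Of the 8 genes, Cox8a and Arl6ip4 had r above 0.2 in both levels of both tissues.

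At the other end of the pool stood Rhoj, a small GTPase gene active in endothelial cells (-0.44 in cortex and -0.43 in hippocampus), Hnrnpu, a nuclear RNA-binding protein (-0.42 and -0.43), and the leucyl-tRNA synthetase gene Lars (-0.42 in both). Mpp5, a cell polarity scaffold, had -0.41 and -0.61, Tm7sf3 -0.56 and -0.41 and Sobp -0.51 and -0.40. Alad, an enzyme of heme synthesis (-0.44 and -0.40), and the MAX-binding gene Mga (-0.40 and -0.46) completed the 8 lowest of the pool. Over all genes the lowest likeness was -0.45, that of a gene outside the pool. Rhoj had r between -0.21 and 0.23 inside the levels of both tissues. Mrpl40 itself had r of -0.08 in cortex and -0.03 in hippocampus.

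None of these relations passed a test over all genes. With the log2 CPM of Slc25a1 as a slope and no level term, edgeR called 0 of 20393 genes in cortex and 0 of 20161 in hippocampus (0%), with 1846 genes (9.05%) and 1379 genes (6.84%) at an unadjusted p under 0.05. The smallest edgeR adjusted p was 0.300 in cortex and 0.208 in hippocampus. For Cox8a the slope was 0.07 log2 units per log2 unit of Slc25a1 in cortex (edgeR adjusted p 0.360) and 0.13 in hippocampus (0.724).

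**Figure D3:**
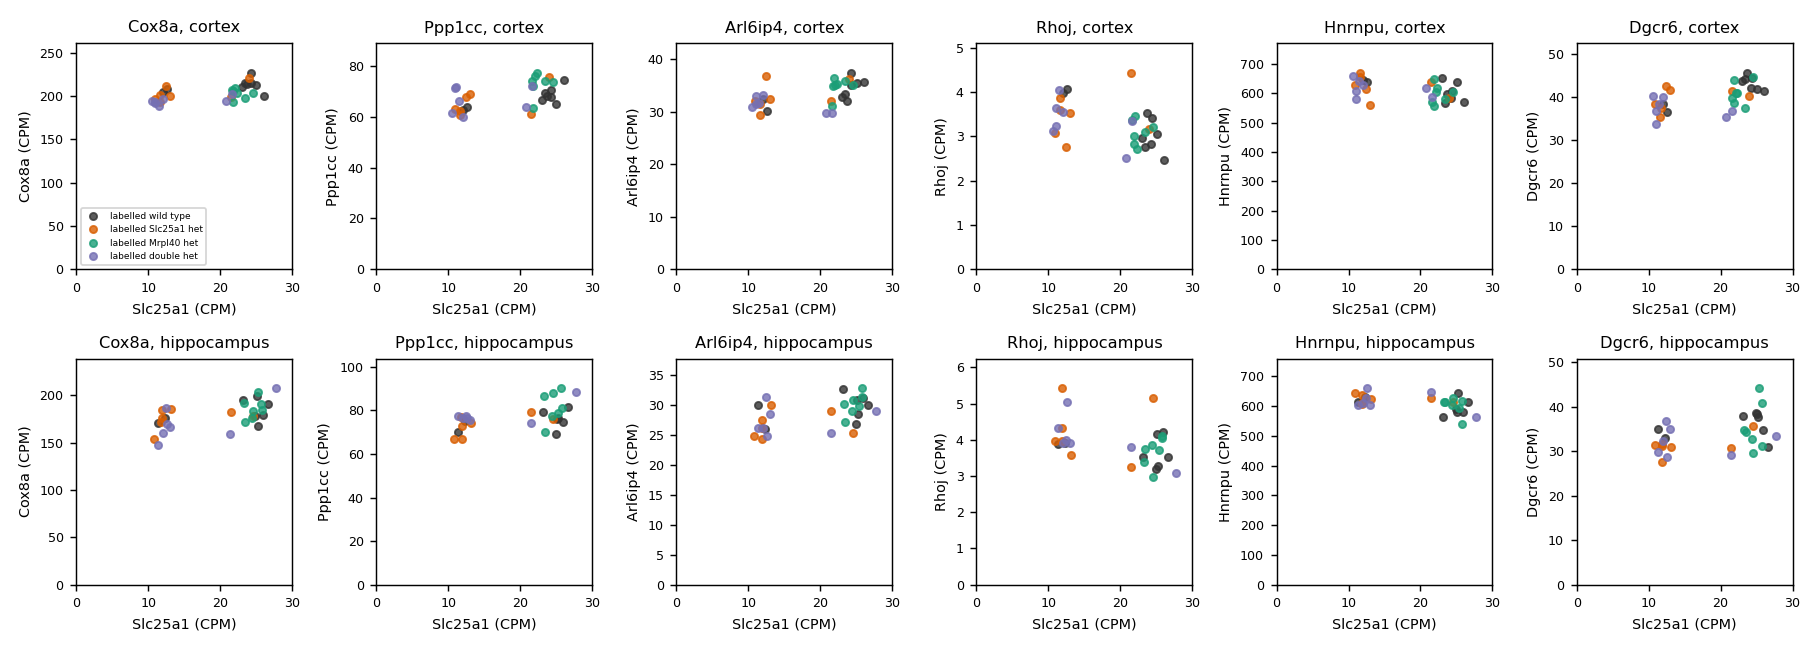
CPM of 6 genes (y axes, from 0) against CPM of Slc25a1 (x axes) in each library, cortex above and hippocampus below, coloured by labelled genotype. The Slc25a1 values stand in 2 groups while each of the other genes overlaps widely between them, including Cox8a with the highest likeness of 0.56.

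The neighbours of Slc25a1 on chromosome 16 were looked at by position. Within 1 Mb of its start 61 genes were measured in both tissues, and 20 of them had a positive r in both tissues and 12 a negative r in both. Their median r was 0.02 in cortex and 0.05 in hippocampus, against 0.01 and -0.01 over all genes, of which 26% were positive in both. The nearest gene below it by coordinate, the predicted gene AA914427 at -3.18 kb, had r of 0.07 in cortex and -0.15 in hippocampus at a level of 0.81 and 0.86 CPM.

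Of the other nearest genes, Dgcr14, a spliceosome-associated protein gene at -24.5 kb, had r of 0.40 in cortex and 0.52 in hippocampus. Dgcr2, which encodes an adhesion receptor, at -85.7 kb had 0.35 and 0.24. On the upper side Dgcr6 at 128 kb had 0.55 and 0.43, which places it at rank 16 by likeness among 19462 genes. Prodh, the proline dehydrogenase gene at 135 kb, had 0.34 and 0.24, and Rtn4r, the Nogo receptor gene at 202 kb, -0.02 and 0.10. Thus 4 of the 6 nearest genes had a positive r in both tissues over all libraries, and Rtn4r and AA914427 did not. Of these 4, Dgcr6 alone had a positive r on both levels of both tissues. Its values were 0.42 on the low and 0.51 on the high level in cortex, and 0.15 and 0.29 in hippocampus. Dgcr14 had -0.40 and 0.47, and 0.02 and -0.12. Dgcr2 had 0.04 and -0.41, and -0.12 and -0.33. Prodh had 0.73 and 0.03, and 0.28 and -0.09.

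Dgcr6 measured 41.9 ± 2.93 CPM (SD, n = 9) in cortex labelled wild type, 39.5 ± 2.59 with Slc25a1 het, 40.8 ± 2.65 with Mrpl40 het and 37.2 ± 2.40 with double het (SD, n = 7 each). In hippocampus it measured 35.8 ± 2.85 CPM (SD, n = 8), 31.3 ± 2.39, 35.4 ± 5.28 and 32.2 ± 3.09 (SD, n = 7 each). Both labels with Slc25a1 -/+ have the lower means in each tissue, and all 4 ranges overlap. Its slope on Slc25a1 with no level term was 0.13 in cortex (p 0.000907, edgeR adjusted p 0.350) and 0.14 in hippocampus (p 0.0113, edgeR adjusted p 0.724), which does not pass. Dgcr14 had slopes of 0.06 and 0.09 (edgeR adjusted p 0.547 and 0.724).

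**Figure D4:**
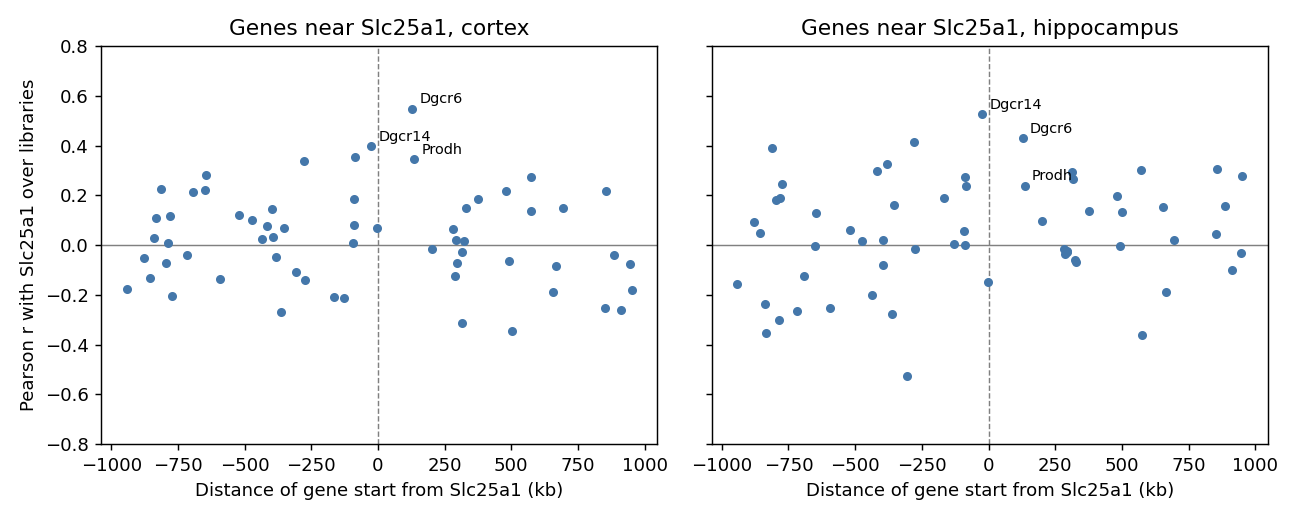
Pearson r with Slc25a1 over the libraries of a tissue (y axis) against the distance of a gene's start from that of Slc25a1 (x axis, kb), for the 61 genes within 1 Mb, cortex left and hippocampus right. Most genes scatter around 0 (median r 0.02 and 0.05), and Dgcr6 (0.55 and 0.43) and Dgcr14 (0.40 and 0.52) stand highest near the centre.

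A further search asked which genes follow Slc25a1 inside its levels, with the level as a factor so that the step between the levels does not enter. In cortex 276 of 20393 genes passed (1.35%), 97 rising and 179 falling with Slc25a1, and 3193 had an unadjusted p under 0.05. In hippocampus 242 of 20161 passed (1.2%), 99 rising and 143 falling, with 3709 at an unadjusted p under 0.05. Without the 6 animals whose level goes against the label, which leaves fewer libraries, edgeR called 0 of 20349 genes over 24 cortex libraries (2640 genes, or 13%, at an unadjusted p under 0.05) and 0 of 20346 over 23 hippocampus libraries (2330 genes, or 11.5%, unadjusted). The share of genes at an unadjusted p under 0.05 with all animals was 15.7% in cortex and 18.4% in hippocampus, and the part of the animals and of the number of libraries in the loss of calls was not tested. The hippocampus count was 203 without the library of animal 12 that is high in cerebellar markers.

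The genes named here were chosen after their values were seen. The genes with the smallest adjusted p in cortex included the falling genes Hspa4, a heat shock protein of the Hsp110 family, with a slope of -0.82 ± 0.15 log2 units per log2 unit of Slc25a1 (SE, edgeR adjusted p 0.0102), and Atp6v1c1, a subunit of the vacuolar proton pump, with -0.76 ± 0.14 (edgeR adjusted p 0.0102). They also included the rising genes Slc7a10, an astrocyte amino acid transporter, with 1.18 ± 0.22 (edgeR adjusted p 0.0102) and Ntsr2, an astrocyte neurotensin receptor, with 0.96 ± 0.18 (0.0116). In hippocampus Akr1b10, an aldo-keto reductase, rose with 1.67 ± 0.28 (edgeR adjusted p 0.0194), and Hrk, a pro-apoptotic BH3-only gene, fell with -1.09 ± 0.20 (0.0255).

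Few genes passed in both tissues. The 2 lists had 5 genes in common, which is 1.81% of the cortex list, where 1.2% of all genes passed in hippocampus, and 2.07% of the hippocampus list, where 1.35% of all genes passed in cortex. These shares are near the background, and the slopes of the 5 genes are given as a description; 0 of the 5 had the same sign in both tissues. Hprt, the purine salvage enzyme, had slopes of -0.62 in cortex and 0.73 in hippocampus, Eps15, an endocytic adaptor, -0.76 and 1.23, and Slc8a1, a sodium-calcium exchanger, -0.88 and 2.20. Rnf11, a RING finger gene, had -0.39 and 0.68, and Ttll7, a tubulin polyglutamylase, -0.59 and 1.34. Among the genes most like Slc25a1, Atp5d passed inside the levels of hippocampus (0.65 ± 0.17, edgeR adjusted p 0.0466; 0.0626 with length and GC trends as covariates, which does not pass) and not of cortex (0.17 ± 0.12, 0.529). The difference between the tissues was not tested.

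**Figure D5:**
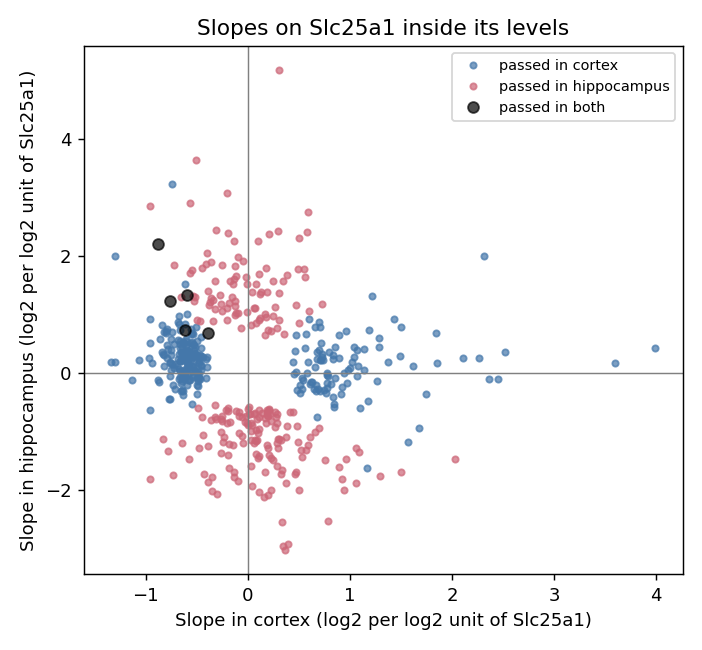
Slope on Slc25a1 inside its levels in cortex (x axis) and hippocampus (y axis), in log2 units per log2 unit of Slc25a1, for the genes that passed in cortex (276), in hippocampus (242) or in both (5, black). The genes of each tissue spread along that tissue's axis, and the 5 shared genes all lie where the cortex slope is negative and the hippocampus slope positive.

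Library properties moved with Slc25a1 inside the cortex levels. The trend of a library's values with the GC content of genes had r with Slc25a1 of 0.46 on the low and 0.67 on the high level, and the trend with transcript length -0.47 and -0.32. The cortex genes that fell had a median transcript length of 4259 bases and a GC content of 42.1%, and those that rose 2982 bases and 57.7%, against 2916 bases and 49.2% over tested genes. With both trends as covariates, 0 of the 276 cortex genes passed by edgeR and 0 others did (1865 of all genes at an unadjusted p under 0.05). In hippocampus the r values were 0.24 and 0.04 for GC content and 0.27 and 0.11 for length, and 121 of the 242 genes passed with the covariates, among 126 in all.

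Some cell type markers moved as well, and neither their r nor their part in these slopes was tested. Other lists changed sign between the levels or had r near 0 on 1 of them. In cortex the oligodendrocyte markers had r with Slc25a1 of 0.28 on the low and -0.26 on the high level. In hippocampus the astrocyte markers had 0.32 and 0.03, and the microglia markers 0.30 and -0.13. In cortex the mean level of the 6 astrocyte markers had r with Slc25a1 of 0.73 on the low and 0.14 on the high level, that of the 6 microglia markers 0.70 and 0.15, and that of the 6 endothelial and pericyte markers 0.75 and -0.11. The 6 neuronal markers had r of -0.53 and -0.21 there, the opposite direction, and the 6 thalamic markers 0.54 and 0.13. The summed astrocyte markers ranged from 1551 to 1961 CPM on the low and from 1517 to 1871 CPM on the high level. In hippocampus the 6 oligodendrocyte markers had r of 0.70 and 0.41 and the 6 neuronal markers 0.37 and 0.52. The oligodendrocyte sum there ranged from 2029 to 4145 CPM on the low and from 1931 to 4549 CPM on the high level, so that the ranges of the levels overlap for each of these lists.

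The genes that make, move and use citrate did not pass in any comparison of labels. The list holds 37 genes of the citrate cycle, pyruvate entry, mitochondrial carriers, citrate cleavage and lipid synthesis, of which 36 were measured in both tissues. By edgeR 0 of the 36 were called in either direction in each of the 14 comparisons, and 0 to 7 had an unadjusted p under 0.05. Of all genes, 0% to 0.0686% were called in these comparisons, so that 0 of 36 is near the background. In cortex labelled Slc25a1 het, 15 lay above and 21 below wild type, with a median log2 fold change of -0.0073 against -0.00043 over all genes (0 of 36 and 3.17% of all genes at an unadjusted p under 0.05). In hippocampus labelled Slc25a1 het, 7 lay above and 29 below, with a median of -0.044 against 0.0045 over all genes (4 of 36 and 7.77% of all genes at an unadjusted p under 0.05).

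In cortex labelled double het 23 lay above and 13 below wild type, with a median of 0.014 against -0.0034 over all genes (2 of 36 and 10.9% of all genes at an unadjusted p under 0.05). In hippocampus labelled double het 16 lay above and 20 below, with a median of -0.011 against -0.0029 (3 of 36 and 5.28%). In cortex labelled Mrpl40 het, 30 lay above and 6 below, with a median of 0.025 against -0.0020 (4 of 36 and 6.94%). In hippocampus labelled Mrpl40 het 20 lay above and 16 below, with a median of 0.016 against -0.0070, and 7 of 36 had an unadjusted p under 0.05 against 8.19% of all genes, the highest count among the 14 comparisons. Without the 6 animals edgeR called 0 of 36 in the pairwise comparisons of labels, where it called 0% to 0.0344% of all genes. Of the 36, 0 to 5 then had an unadjusted p under 0.05, and in hippocampus labelled Slc25a1 het 7 again lay above and 29 below. The comparisons with wild type share its libraries, and the list was chosen with results of these data known.

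Of the members with the most reads, 5 are described here for the label Slc25a1 het. These are Scd2, the brain stearoyl-CoA desaturase, Mdh1, the cytosolic malate dehydrogenase, Fasn, the fatty acid synthase, Cs, the citrate synthase, and Srebf2, the factor that drives genes of cholesterol synthesis. In cortex labelled Slc25a1 het their log2 fold changes ran from -0.01 (Fasn) to 0.01 (Scd2), each with an edgeR adjusted p of 0.9999. In hippocampus labelled Slc25a1 het Mdh1 was at -0.12 ± 0.054 (SE, edgeR adjusted p 0.612) and Srebf2 at -0.06 ± 0.050 (0.788), and the other 3 lay between -0.0069 (Cs) and 0.03 (Scd2). Acly, the direct user of exported citrate, was at -0.0023 ± 0.035 in cortex and -0.04 ± 0.043 in hippocampus labelled Slc25a1 het (edgeR adjusted p 0.9999 and 0.856), and at 0.07 ± 0.035 in cortex labelled double het (0.417).

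Over all libraries, where r mixes the step between the levels with the spread inside them, the list members had weak r with Slc25a1. Of the 36, 19 had a positive r in both tissues, as did 26% of all genes, and 4 a negative r in both. Over all 19462 genes, 10221 had the same sign in both. Inside the levels Mdh1, Fasn, Cs and Srebf2 had negative r on both levels of cortex and positive r on both of hippocampus. Scd2 had 0.86 on the low and -0.42 on the high level of cortex, and 0.67 and 0.55 in hippocampus. Their median r was 0.10 in cortex and 0.16 in hippocampus against 0.01 and -0.01 over all genes. The likeness ran from -0.14 for Mpc2, a subunit of the mitochondrial pyruvate carrier, to 0.30 for Pcx, the pyruvate carboxylase. Inside the levels 1 of 36 passed in cortex (1.35% of all genes did) and 0 in hippocampus. That gene was Idh2, the mitochondrial NADP-dependent isocitrate dehydrogenase, with a slope of 0.77 ± 0.19 in cortex (edgeR adjusted p 0.0342) and -0.03 ± 0.22 in hippocampus (0.966). With length and GC trends as covariates it did not pass in cortex, where no gene did.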

How the data were processed

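Poly(A) RNA of cortex and hippocampus was sequenced with a directional paired-end library kit, per the labels' protocols. The count values, deposited by the authors as raw reads per gene with no normalization, were the input of every test. A deposited table of signal values, the authors' normalized counts, served as an alternative scale (log2 of the value plus 1). Per the submitters' processing notes, FastQC, HISAT2, featureCounts and DESeq2 were used with mm39 (GRCm39), and the sources used here give no versions or settings. Library totals ranged from 21443017 to 32120906 counts.

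Groups came from the labels. Slc25a1, the comparisons, the gene lists and the rule for named genes were chosen with earlier results of these data known. Genes were tested with the quasi-likelihood test of edgeR 4.0.16 (R 4.3.3; TMM, filterByExpr, robust dispersion), fitting the 4 genotypes of each tissue jointly and Benjamini-Hochberg adjustment over all tested genes at 0.05. Tissues were compared with the animal as a block. Log2 CPM used a prior count of 2. Permutation tests (scipy 1.17.1) were two-sided, exact for the labels and with 100000 resamples for the tissues of an animal. Fits were also run on simulated counts, with an outcome not reported here. The simulated slope variable held no counting error and the simulated pairs no animal effect, unlike these data. GENCODE vM21 (GRCm38) gave positions, transcript lengths and GC content for 97.3% of the genes tested in cortex and 97.4% of those in hippocampus. The promoter came from RefSeq (GRCm38.p6).

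Named genes were Slc25a1, Mrpl40, the 8 highest and 8 lowest likeness values among genes whose mean log2 CPM reached 1 and whose symbol is not a predicted gene's, the 8 widest gaps over both tissues, the 3 nearest measured genes on each side of Slc25a1, and the 6 members of the citrate list with the most reads, 1 of which is not reported here. Acly, Mpc2, Pcx, Idh2 and the genes of the slopes inside the levels were picked with their values in view.

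The alternatives tried were size factors of DESeq2 1.42.0 in edgeR, its Wald test, no filter on low counts, a fit of the compared genotypes alone, a block for the replicate number, tissues without the animal block, the deposited normalized counts, Spearman's rho, deviations inside the levels, gaps with 3 libraries on each side and slopes with no level term. After seeing the data, fits were added that leave out the 6 animals whose level goes against the label, and further fits with length and GC trends as 2 covariates, and without the hippocampus library high in cerebellar markers. Figures were drawn with matplotlib 3.10.9.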

Additional observations from a re-analysis of the deposited data

How the results depend on the processing

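The fold changes and interactions of Slc25a1 and its tissue difference over all animals kept their direction, and these and the test of the tissue difference between labels, which has a p and no direction, stayed on the same side of the edgeR or DESeq2 threshold in all 72 alternatives run for these 16 results. The tissue differences of single labels were not run under alternatives. The replicate numbers of the labels were not taken as pairs in the main fits, since not every pair of libraries deviated together. Whether the numbers mark libraries that were handled together was not tested. Libraries with the same number deviated together with a median r across genes of 0.126 in cortex (range -0.405 to 0.532; -0.023 between other numbers) and 0.053 in hippocampus (range -0.455 to 0.527; 0.010 between other numbers), and 9 of 28 and 3 of 27 libraries correlated best with their own number. With the replicate number as a block, Slc25a1 het against wild type was -0.47 in cortex and -0.40 in hippocampus, double het against wild type -0.54 and -0.32, and Mrpl40 het against wild type 0.15 and 0.35, with no change of call.

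The counts of genes were less stable, and where no value is given beside them the cause was not tested. Genes passing inside the levels numbered 276 in cortex and 242 in hippocampus. They numbered 0 in both with no level term and 0 in both without the 6 animals, which leaves fewer libraries. They numbered 169 and 159 with no filter on low counts, and 0 and 126 with length and GC trends as covariates. With DESeq2 size factors in edgeR the hippocampus count was 521. Other genes with a gap at least that of Slc25a1 numbered 7 in cortex and 15 in hippocampus on the deposited normalized counts, in place of 3 and 9, and 21 and 26 with 3 libraries on each side. Genes with a likeness of at least 0.4 numbered 65 with Spearman's rho and 72 with deviations inside the levels, in place of 26, and those at -0.4 or below 38 and 71, in place of 12.

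With 254 to 783 reads on Slc25a1 per library, differences inside the low level are close to counting error. In these mixed labels the intervals of the interaction hold a negative value as large as the pooled difference between labels. The power to detect such an interaction was not tested.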
